A study of Sus scrofa with 180 samples.

Results

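MYOD1, MYOG and MYF6 are myogenic regulatory factors, and their transcripts were read in 2 muscles of 90 pigs, Longissimus (LM) in the back and Semimembranosus (SM) in the ham, on 180 Agilent arrays of a single colour (1 array for a muscle of a pig). Members were chosen by name: every probe that the probe annotation of the study's gene lists, as far as they were at hand, pairs with 1 of the 3 symbols was taken. This gave 1 probe for each gene, or 3 probes of the 15198 on the array and 3 genes of the 3481 that the annotation names. That annotation lists only probes that the study had called different between these same muscles, and 1 of its lists was held only in part, so further probes of the members may exist that were not analysed here. The fact that the members differ was thus partly fixed by the choice. No probe named MYF5, the remaining member of the family, was found in it, and MYF5 was not analysed here.

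The animals were females and barrows of an F2 intercross between the commercial sire lines F016, of Pietrain type, and FH019, a synthetic line with Hampshire, Duroc and Large-White founders. They came from 2 half-sib families, were slaughtered at commercial weight, received no treatment and were all homozygous wild type at the HAL and RN loci. Both muscles were sampled shortly after death from the superficial part of the muscle with a trocar. The labels do not give the sex, family or age of each pig. LM was hybridised on 21 slides, scanned over 10 days, and SM on 14 other slides, scanned over 5 other days. All SM arrays were scanned after the last LM array. Muscle therefore cannot be told apart from slide or scan day on any single slide or day, nor from the scan period as a whole.

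Myogenic regulatory factors are basic helix-loop-helix proteins that pair with E proteins and bind E-box sequences in the regulatory regions of muscle genes. In the embryo, MYF5 and MYOD1 commit precursor cells to the muscle lineage, MYOG drives their differentiation into fibres, and MYF6, also called MRF4, acts in determination and again in the mature fibre. In adult muscle, MYOD1 and MYOG are low in resting fibres and rise in activated satellite cells, the muscle stem cells, and after loss of the nerve supply. In the RefSeq annotation of the pig genome MYF6 and MYF5 are adjacent genes. RNA came from whole muscle, and fewer cells of a type cannot be told apart from less RNA in each cell.

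The probes are 60 bases long, and the first 30 bases of each are shown, since every value below was read from these molecules. Capitals mark the first 15 bases, in which C was counted for a check described with MYOD1.
MYF6: AAGAGAATCTTGAGGgtgcggatttcctgc
MYOG: TTATCTGACTCCTTAgagcagaaagcagtt
MYOD1: ACAAAAATCATTTCTcccgccactcctact
The probe of MYF6 holds 1 C in these 15 bases, that of MYOG holds 4 and that of MYOD1 holds 3, against a median of 3 over all probes on the array. GC content was 55% for MYF6 and 45% for both MYOG and MYOD1, against a median of 45%. No other probe on the array shares a run of 20 bases with any of them, on either strand. Signals of different probes were not set against each other, since probes differ in how strongly they bind.

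MYF6 was overrepresented in SM, MYOG was overrepresented in LM, and MYOD1 read higher in SM. When an index of the arrays, described with MYOD1, was taken into account as a covariate, MYF6 kept its call, MYOG lost it and MYOD1 turned direction. In the comparison of all arrays, 10987 probes were tested, of which 35.7% were called higher in LM and 47.7% higher in SM at an adjusted p of 0.05 or less. The members, with 1 higher in LM and 2 higher in SM, are thus not set apart by being called. Their differences were of unequal size among all probes: 2.33% of the probes fell short in LM by as much as MYF6 or more, 4.87% by as much as MYOD1 or more, and 16.4% exceeded SM by as much as MYOG or more.

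MYF6 encodes the factor that persists in mature fibres. Its processed signal, a background-subtracted intensity on a linear scale, ran from 1903 to 11725 in LM with a median of 4961, and from 3087 to 16454 in SM with a median of 8656. After the log2 transformation and subtraction of the array median, it ran from 1.91 to 4.35 in LM with a median of 3.28, and from 2.85 to 5.30 in SM with a median of 4.36. All 180 spots were usable. The muscles overlapped, yet 46 of 90 SM values lay above the highest LM value, and no LM value lay above the SM median. LM averaged 3.30 ± 0.57 (SD, n = 90), against 4.32 ± 0.48 (SD, n = 90) for SM. The log2 difference, LM minus SM, was -1.02 with an SE of 0.078 and an adjusted p of 2.88e-27 by limma, an FC ratio of 2.03 in favour of SM with a 95% interval from 1.82 to 2.26.

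MYOG encodes the differentiation factor myogenin. Its processed signal ran from 229 to 1649 in LM with a median of 574, and from 89.1 to 1245 in SM with a median of 334. On the centred log2 scale it ran from -1.15 to 1.39 in LM with a median of 0.21, and from -1.51 to 1.27 in SM with a median of -0.31, after 1 outlying value was removed in each muscle. The muscles overlapped over most of their range: 15 of 89 SM values lay above the LM median, and 73 of 89 LM values lay above the SM median. LM averaged 0.13 ± 0.52 (SD, n = 89), against -0.30 ± 0.57 (SD, n = 89) for SM. The log2 difference was 0.44 with an SE of 0.081 and an adjusted p of 3.33e-07 by limma, an FC ratio of 1.36 in favour of LM with a 95% interval from 1.21 to 1.51. This difference was smaller than the SD within either muscle.

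MYOD1 encodes the determination factor, and its probe was dim. Over the spots used, its processed signal ran from 35.3 to 248 in LM with a median of 84.1, and from 52.4 to 394 in SM with a median of 119.9. On the centred log2 scale it ran from -4.10 to -0.88 in LM with a median of -2.63, and from -3.12 to -0.24 in SM with a median of -1.85. The muscles overlapped: 11 of 71 LM values lay above the SM median, and 6 of 80 SM values lay above the highest LM value. LM averaged -2.57 ± 0.67 (SD, n = 71), against -1.76 ± 0.60 (SD, n = 80) for SM. The log2 difference was -0.81 with an SE of 0.10 and an adjusted p of 6.04e-13 by limma, an FC ratio of 1.76 in favour of SM.

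**Figure D1:**
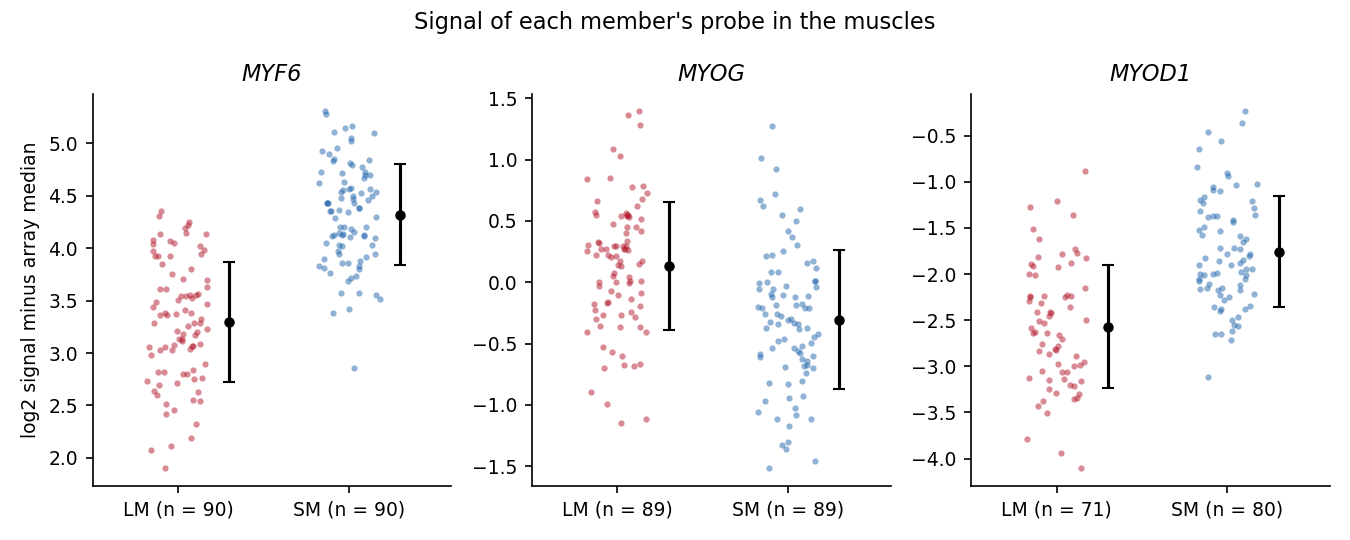
Log2 processed signal minus the array median (vertical axis) of the probe of each member in LM and SM, 1 coloured point for each usable array and a black point with bars for the mean and SD. MYF6 sits about 1 log2 unit higher in SM, MYOG lies 0.44 lower in SM with wide overlap, and MYOD1 lies higher in SM over 71 and 80 usable arrays.

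Spots of MYOD1 were often unusable, unlike those of the other members. In LM, 11 spots were marked as not uniform and 8 as not well above background, and in SM 7 were not uniform, 2 were not well above background and 1 value was outlying. The non-uniform spots were bright: the 11 in LM all exceeded the highest signal used in that muscle, with a median of 4199 and a maximum of 230027. They lay on 7 slides, and the arrays that held them had a median of 3.72% non-uniform spots, against 0.125% for the other LM arrays. In SM the non-uniform spots of MYOD1 had a median signal of 456 and a maximum of 599. With all spots used and outlying values still removed, the log2 difference of MYOD1 was -0.81 (SE 0.154, adjusted p = 5.80e-07 by limma), not adjusted for the index. MYOD1 was then higher in SM in 67 of 85 pigs, with within-pig differences from -4.11 to 3.76.

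The level of MYOD1 followed a property of the array. An index was computed for each array from 2 classes of probe: 215 whose first 15 bases include at least 8 C, and 3954 in which they include at most 2. It is the mean level of the first class less the mean of the second, with each probe centred on its own mean and the members left out. The mean index of LM was -0.37 ± 0.34 (SD, n = 90), against 0.38 ± 0.31 (SD, n = 90) for SM, with ranges from -1.13 to 0.36 and from -0.32 to 1.14. Within LM, MYOD1 correlated with the index at Pearson's r of 0.86 and Spearman's rho of 0.86 over 71 arrays (adjusted permutation p = 3e-05 for both, over 6 relations). Within SM, r was 0.85 and rho was 0.82 over 80 arrays, with the same adjusted permutation p. The raw p of 1e-05 was the smallest that the permutations can give. Without the 2 arrays farthest from the median of the index, r was 0.84 in LM and 0.83 in SM, and with the mean of each slide subtracted it was 0.87 in both muscles. Correlations as high as that of MYOD1 were seen in 1.84% of all probes in LM and 2.17% in SM. Those probes include the 2 classes from which the index was built.

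MYF6 and MYOG gave values of r nearer to 0. For MYF6, r was -0.13 in LM (rho -0.16, adjusted permutation p 0.268) and 0.26 in SM (rho 0.27, adjusted permutation p 0.0199), and the latter was 0.22 without the 2 farthest arrays and 0.096 within slides. For MYOG, r was -0.29 in LM (rho -0.27, adjusted permutation p 0.0118) and -0.07 in SM (rho -0.08, adjusted permutation p 0.532), and the former was -0.22 without the 2 farthest arrays and -0.20 within slides.

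The muscle difference of each member was therefore computed with the index taken into account. With the index as a covariate, the difference of MYF6 was -0.97 (adjusted p = 5.52e-13 by limma), that of MYOG fell to 0.21 (adjusted p = 0.116 by limma) and that of MYOD1 turned to 0.69 in favour of LM (adjusted p = 1.10e-11 by limma). The index and the muscle are themselves related, so the comparison was also limited to arrays with an index between -0.32 and 0.36, the range that both muscles share, which left 41 LM and 46 SM arrays. Their mean index still differed, at -0.07 in LM and 0.15 in SM, so this is not a comparison at a matched index. There the difference was -0.97 for MYF6 (95% interval -1.17 to -0.78, adjusted p = 3.35e-15 by limma) and 0.30 for MYOG (95% interval 0.065 to 0.54, adjusted p = 0.0189 by limma). For MYOD1 it was 0.07 (95% interval -0.12 to 0.27, adjusted p = 0.502 by limma). The direction of the MYOD1 difference thus rests on how the index is treated, and the part of the index in it was not tested further. Over all probes, 390 of 9169 called probes (4.25%) were called in the opposite direction with the index as a covariate, and 1757 (19.2%) were no longer called.

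**Figure D2:**
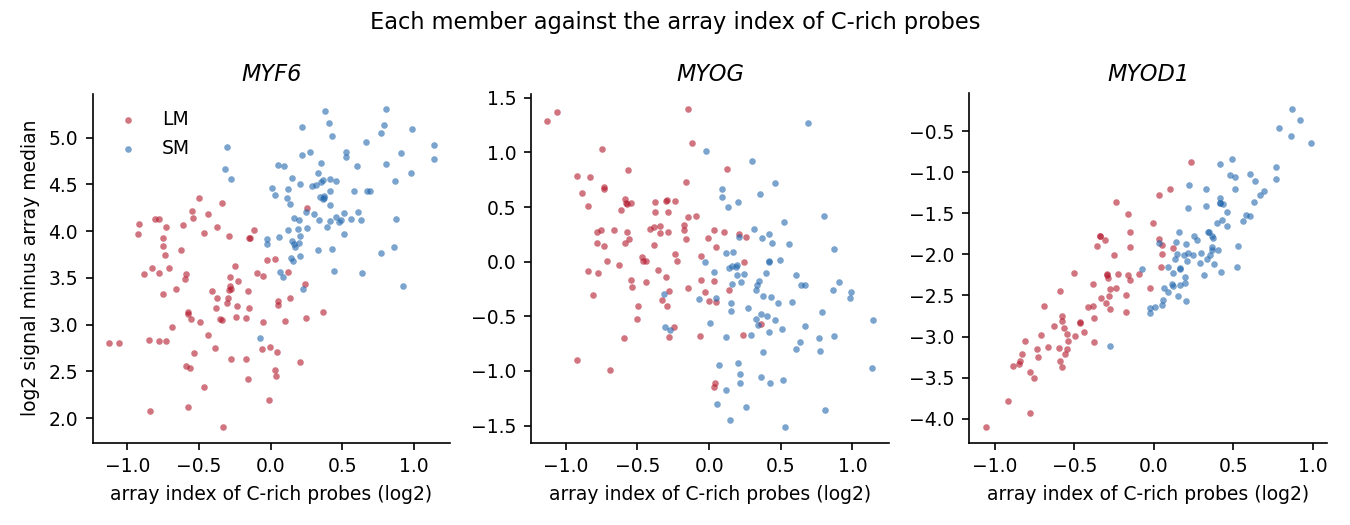
Log2 processed signal minus the array median of each member (vertical axis) against the index of C-rich probes of the array in log2 units (horizontal axis), 1 point for each usable array, LM in red and SM in blue. MYOD1 rises with the index in both muscles, with r of 0.86 in LM and 0.85 in SM and with LM the higher at a like index, whereas the muscles stay apart in MYF6 where their index overlaps.

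The pattern without the index was also read pig by pig. MYF6 was higher in SM in 81 of 90 pigs, with a within-pig difference from -2.69 to 0.99, a median of -1.04 and an SD of 0.78. In 46 pigs it exceeded LM by 1 log2 unit or more, and in none was LM above SM by that much. MYOG was higher in LM in 62 of 88 pigs, with differences from -0.88 to 2.39, a median of 0.45 and an SD of 0.71, and 18 pigs had LM above SM by 1 unit or more. MYOD1 was higher in SM in 52 of 63 pigs with usable spots in both muscles, with differences from -2.75 to 1.11 and a median of -0.82. These counts of MYOD1 carry the same dependence on the index: with the index and the pig in the fit, its difference was 0.60 in favour of LM. Opposite shifts of MYF6 towards SM and of MYOG towards LM occurred together in 56 of 88 pigs, both genes were higher in SM in 24, both were higher in LM in 6, and 2 pigs showed the reverse of the common pattern.

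**Figure D3:**
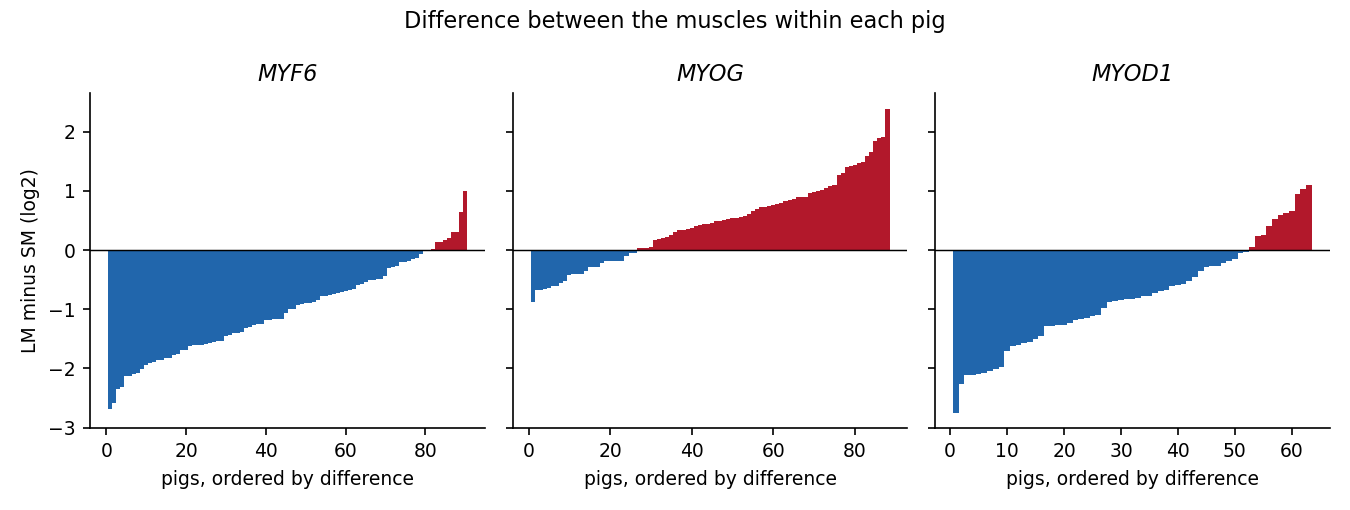
Difference in log2 signal between the muscles, LM minus SM (vertical axis), for each pig with usable spots in both muscles, ordered from lowest to highest; blue bars are pigs higher in SM and red bars pigs higher in LM. Most bars are blue for MYF6 (81 of 90) and MYOD1 (52 of 63), and most are red for MYOG (62 of 88). The index of C-rich probes was not taken into account.

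The members were then compared within each pig, which asks whether they shift between the muscles to unequal degrees and does not depend on the constant subtracted from an array. A permutation test that flips the sign of each pig's value was used, two-sided, for 3 pairs. MYOG minus MYF6 was 1.49 log2 units higher in LM than in SM (SE 0.117, higher in 82 of 88 pigs, adjusted permutation p = 1.5e-05). MYOG minus MYOD1 was 1.20 units higher in LM (SE 0.152, higher in 54 of 63 pigs, adjusted permutation p = 1.5e-05), but with the index removed it turned to -0.46 (adjusted permutation p = 0.00016). MYOD1 and MYF6 differed by 0.18 units (SE 0.150, higher in 34 of 63 pigs, adjusted permutation p = 0.235), by -0.20 units with quantile normalisation (adjusted permutation p = 0.227), and by 1.58 units with the index removed (higher in 61 of 63 pigs, adjusted permutation p = 1.5e-05).

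Arrays of a muscle, 1 for each pig, varied in each gene. Without repeated arrays, spread between pigs cannot be told apart from spread between arrays. The highest value exceeded the lowest by 5.45-fold for MYF6 in LM and 5.46-fold in SM, by 5.83-fold and 6.90-fold for MYOG, and by 9.32-fold and 7.36-fold for MYOD1 over its usable arrays. Different pigs lie on different slides, so spread between slides holds spread between pigs. Between slides with 3 or more arrays, 53.6% of all probes differed in LM and 15.0% in SM (limma F test, adjusted p of 0.05 or less). Of the members, MYOG differed between the 18 slides of LM (F = 2.42, adjusted p = 0.0138 by limma), with 37.5% of its variance lying between slides against a median of 35.9% over all probes. MYF6 did not pass this test in LM (F = 1.14, adjusted p = 0.381 by limma) or in SM (F = 1.68, adjusted p = 0.221 by limma). MYOG did not pass it in SM (adjusted p = 0.422 by limma). For MYOD1 the test gave an adjusted p of 0.146 in LM and 0.334 in SM by limma. The F does not fully allow for missing values, of which MYOD1 had many, so it cannot decide whether slides differ for MYOD1. In LM, 43.7% of the variance of MYOD1 over its usable arrays lay between slides, and 31.6% with all spots used, against 37.5% for MYOG in either case. Such a share rises when fewer arrays lie on a slide, so the genes cannot be ranked by it.

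Slide and scan-day means were read as well, though with all SM arrays scanned later they cannot separate muscle from scan period. Slide means of MYF6 ran from 2.87 to 3.81 over 18 LM slides and from 3.90 to 4.62 over 13 SM slides, without overlap. Those of MYOG ran from -0.43 to 0.79 and from -0.75 to 0.16, with overlap, and those of MYOD1 from -3.09 to -1.72 and from -2.12 to -1.04. Over scan days, the means of MYF6 did not overlap either, with 3.00 to 3.81 in LM and 4.11 to 4.42 in SM. When scan days entered as random blocks, the differences were -0.98 for MYF6 (SE 0.132), 0.42 for MYOG (SE 0.135, adjusted p = 0.0033 by limma) and -0.80 for MYOD1 (SE 0.161).

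**Figure D4:**
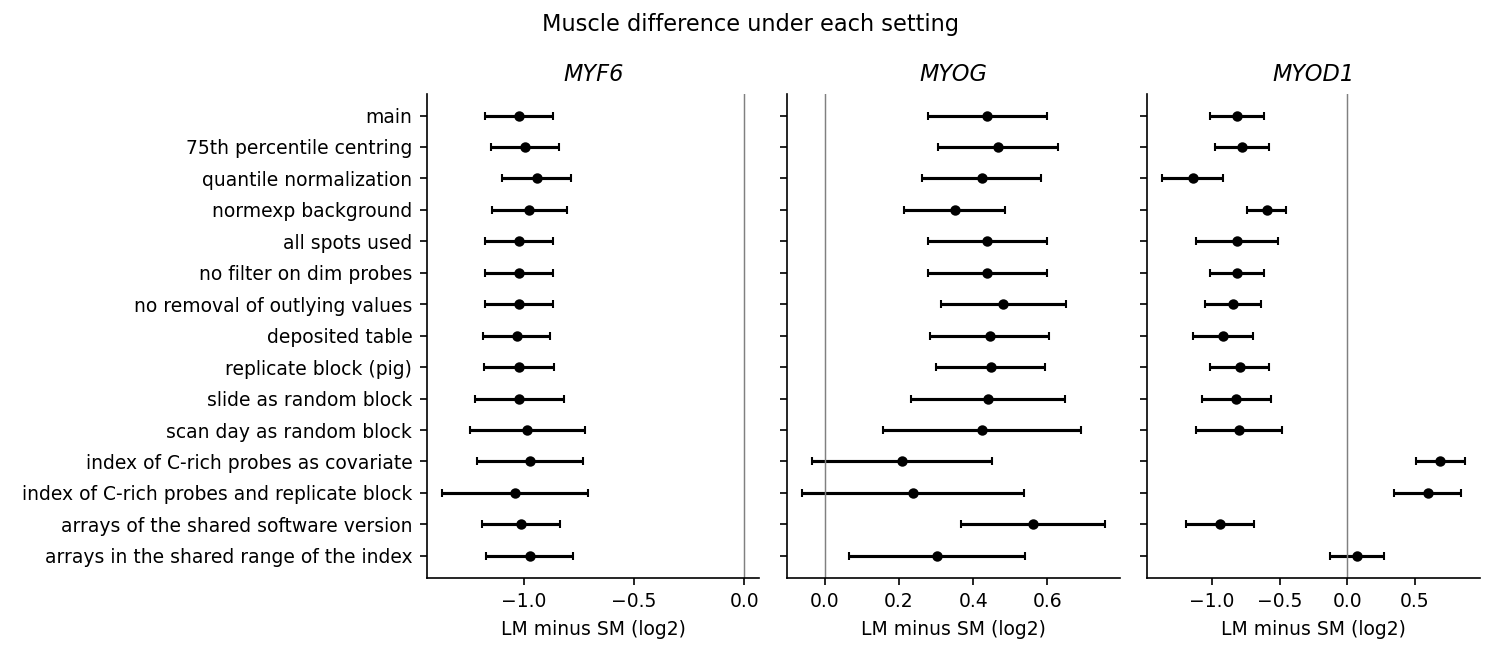
Log2 difference, LM minus SM (horizontal axis), of each member with its 95% interval under the main processing and each alternative (rows). MYF6 stays near -1 throughout, MYOG reaches 0 within its interval in fits that adjust for the C-rich index, and MYOD1 crosses 0 in the 3 settings that take account of the index by a covariate or a shared range.

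Levels of the members were next related to each other among the pigs of 1 muscle, 9 relations being computed with those between muscles. In LM, MYOG and MYF6 had Pearson's r of 0.06 and Spearman's rho of 0.06 over 89 arrays (permutation p 0.567, adjusted 0.986), and without the 2 arrays farthest from the median r was -0.01. In SM, their r was -0.16 and rho -0.17 over 89 arrays (permutation p 0.128, adjusted 0.640), and r was -0.16 without the 2 farthest. For MYOD1 and MYF6, r was -0.002 in LM (rho -0.02, n = 71, permutation p 0.986) and -0.02 in SM (rho -0.04, n = 80, permutation p 0.828), with -0.04 and 0.04 without the 2 farthest. For MYOD1 and MYOG, r was -0.13 in LM (rho -0.12, n = 71, permutation p 0.281) and -0.02 in SM (rho -0.06, n = 79, permutation p 0.828), with 0.01 and -0.04 without the 2 farthest. None of the 6 passed after adjustment, the lowest adjusted permutation p being 0.640. With slide means subtracted, the 6 values of r lay between -0.12 and 0.04.

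The relation of MYOD1 to MYF6 in SM did depend on processing. With the index removed from both genes r was -0.36 and rho -0.35 over 80 arrays (adjusted permutation p = 0.00927), and with normexp background correction r was -0.36 (adjusted permutation p = 0.00999) but rho was -0.13 (adjusted permutation p = 0.520). In LM, with the index removed, r was 0.13 (adjusted permutation p = 0.638).

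A pig high for a member in one muscle was not detectably high in the other. Between the muscles of a pig, r was -0.08 for MYF6 (rho -0.08, n = 90, permutation p 0.464), 0.16 for MYOG (rho 0.07, n = 88, permutation p 0.142) and 0.01 for MYOD1 (rho -0.07, n = 63, permutation p 0.914). Without the 2 pigs farthest from the LM median these were -0.08, 0.07 and -0.07. The smallest adjusted permutation p of the 3 was 0.640. Pigs of a family are relatives, and the labels do not tell the families apart.

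**Figure D5:**
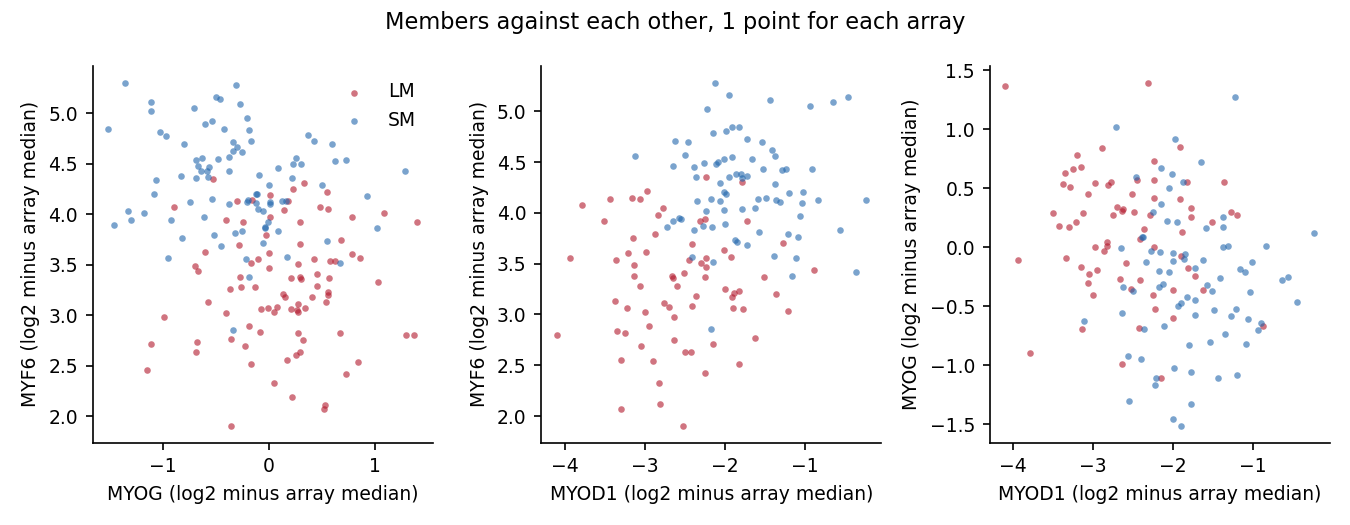
Log2 processed signal minus the array median of one member (horizontal axis) against another (vertical axis), 1 point for each array with both spots usable, LM in red and SM in blue. Within a colour no slope is visible: r lies between -0.16 and 0.06 over the 6 pairs of gene and muscle.

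The named probes whose levels were most like those of a member, by the lower of the r in LM and in SM, describe what each probe moved with. For MYF6 these were PDE7A, a cAMP phosphodiesterase, with r of 0.59 in LM and 0.57 in SM, BACH1, a leucine-zipper repressor, with 0.68 and 0.54, and ABRA, an actin-binding protein of striated muscle, with 0.55 and 0.54. ABRA, like MYF6, was higher in SM (-0.78), but PDE7A and BACH1 were higher in LM (0.41 and 0.35). For MYOG the closest were C1ORF77, with r of 0.36 and 0.40, SIK3, a kinase, with 0.37 and 0.35, and CHCHD4, a mitochondrial import protein, with 0.38 and 0.34, and all 3 were higher in SM. For MYOD1 they were ASPDH, with r of 0.86 in both muscles, MAP7D2, with 0.86 and 0.87, and ARAP1, with 0.85 and 0.87, whose probes hold 7, 2 and 9 C in their first 15 bases. In LM, 519 probes correlated with MYOD1 at r above 0.5, against 7 with MYOG and 152 with MYF6, and in SM 460, 1 and 21. The arrays share their scaling, and these values of r are descriptions.

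Other genes of the pathway were taken from lists of partners, inhibitors and targets. Their probes, too, are named only where the study had called them. Counts in a list thus describe direction and are not evidence that the list changed. The study's list of genes higher in SM was held only in part, so probes higher in SM may be missing from these counts. Over all probes tested the median difference was -0.07, and of 9169 called probes 3925 (42.8%) were higher in LM and 5244 in SM. Of 100 listed probes, members included, 3 (1 each of MAPK12, MEF2A and ZEB2) turned direction with quantile normalisation and with normexp background correction, and the rest kept theirs under every scaling tried. Partners and antagonists at the E box came first. Of 7 genes, 5 had a probe, and 4 of these were higher in SM. TCF3, which encodes the E proteins E12 and E47, was higher in LM by 0.21 (SE 0.045), and TCF4, another E protein, was higher in SM (-0.83, SE 0.053). ID proteins lack a DNA-binding region and hold E proteins away from myogenic factors. ID1 (-0.74, SE 0.065), ID2 (-0.87, SE 0.064) and ID3 (-0.90, SE 0.042) were all higher in SM, the muscle with more MYF6 signal.

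The named probes of cofactors of the myogenic factors went mostly the other way. Of 13 probes of 9 genes, 9 were higher in LM and 4 were higher in SM, with a median of 0.25. TEAD1, which binds muscle enhancers, was higher in LM by 0.54 (SE 0.035), and KAT2B, the acetyltransferase PCAF, by 0.51 (SE 0.036). The MEF2 factors bind DNA beside the myogenic factors and act with them. The 3 probes of MEF2A were higher in LM by 0.13 to 0.37 (the weakest turned to -0.02 with quantile normalisation), and the 2 of MEF2C by 0.25 and 0.12. With the index as a covariate MEF2C was not called by either probe (adjusted p = 0.592 and 0.628 by limma). Nor was the weakest probe of MEF2A (adjusted p = 0.811 by limma). IFRD1, a coregulator in muscle differentiation, was higher in LM by 2.61 (SE 0.094), while TEAD4 (-0.44), VGLL2 (-0.26) and both probes of SMYD1, a muscle methyltransferase (-0.31 and -0.63), were higher in SM. Among inhibitors, 4 of 6 probes were higher in SM, those of MDFIC, HEY1 and HEY2. The other 2 were higher in LM, those of the E-box repressors ZEB1 (0.39) and ZEB2 (0.22, which turned to -0.11 with quantile normalisation). ZEB2 was not called with the index as a covariate (adjusted p = 0.561 by limma).

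Of 30 genes listed as targets, 11 had a probe, and 9 of their 12 probes were higher in SM, with a median of -0.70. These included ACTA1, skeletal actin (-0.83 and -0.70 by its 2 probes), CAV3, the muscle caveolin (-0.71), and MYBPH, a myosin-binding protein (-0.35), which was not called with the index as a covariate (adjusted p = 0.510 by limma). The developmental myosins MYH3 (-1.39, SE 0.212) and MYH8 (-1.31, SE 0.203) were higher in SM as well, with an SD among the arrays of a muscle between 1.35 and 1.48. CKM, muscle creatine kinase (0.30), MYL1, a fast myosin light chain (0.87), and KBTBD10 (0.44) were higher in LM. Of 7 probes of growth signals, 2 were higher in LM and 5 in SM. MSTN, the inhibitor myostatin (1.31), and its antagonist FST (0.64) were higher in LM, and IGF1 (-0.63) and the cell-cycle genes CCND2 (-0.70), CCND3 (-1.28 and -1.12) and CDKN1B (-0.67) in SM. CDKN1B, which correlated with MYOD1 at r of 0.76 in LM and 0.79 in SM, turned to 0.41 with the index as a covariate.

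Signs of satellite cells and of innervation were read beside the members. Of 16 satellite-cell genes, 4 had a probe: NCAM1 (-0.48), SDC4 (-0.91) and CD34 (-0.72) were higher in SM and ITGB1 (0.43) in LM. All 4 are also used by other cells, and the defining markers PAX7 and PAX3 had no named probe. The summed level of the 4 probes, relative to the array median, ran from 4.15 to 9.64 in LM and from 3.95 to 7.81 in SM, a sum in which the bright probe of ITGB1 weighs most. At the synapse, AGRN, the nerve and muscle organiser agrin, was higher in LM by 2.27, and its receptor LRP4 (-0.94) and ACHE, acetylcholinesterase (-0.55), were higher in SM. FBXO32, a ubiquitin ligase of wasting muscle, was higher in SM by both probes (-0.37 and -0.30), and GADD45A was higher in LM by 0.47, a call lost with the index as a covariate (adjusted p = 0.181 by limma).

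Markers of other tissues moved with the muscle too. Every named probe of endothelium (4), fibroblasts (5), adipocytes (3), smooth muscle (6), Schwann cells (2) and blood (3) was higher in SM, as were 2 of 3 of macrophages, although with the index as a covariate S100B of the Schwann cell list turned to 0.15 in favour of LM and 2 of the 3 probes of HBA2, a haemoglobin chain, were no longer called (adjusted p = 0.139 and 0.180 by limma). Of the 10 skeletal fibre genes with a named probe, 5 were higher in LM (CKM, TTN, NEB, RYR1 and MYBPC1) and 5 in SM (ACTA1, TCAP, MB, MYH1 and PVALB). Of slow-fibre markers 4 of 5 probes, and of fast-fibre markers both (MYH1 and PVALB), were higher in SM, whereas MYL1, given among the targets, was higher in LM. The summed level of the endothelial probes, relative to the array median, ran from 5.63 to 16.7 in LM and from 9.25 to 32.2 in SM, and that of the fibroblast probes from 4.29 to 33.6 and from 16.3 to 97.4, so the muscles overlapped in both. The part of these cells in the differences of the members was not tested.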

How the data were processed

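The array files hold, per the deposited scanner output, a processed intensity for each of 15744 spots (15198 probes), with the background subtracted by Feature Extraction (9.5.1.1 for 44 LM arrays, 9.5.3.1 for all others). A second deposited table, of 6903 probes, is on the natural log scale and served as an alternative. The probe names come from the study's lists, of which 1, that of genes higher in SM, was held in part. The members and gene lists were chosen with earlier results of these data known.

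Intensities were log2 transformed. A spot was treated as missing if it was saturated, non-uniform or not clearly over background. Probes with over 50% such spots in a muscle were left out, array medians were subtracted, and values lying over 3 SD away from their probe's mean were dropped, which left 10987 probes. Muscles were compared with lmFit and eBayes of limma 3.58.1 (R 4.3.3), with Benjamini-Hochberg adjustment over all probes. Sex, carcass weight and the batches of slaughter and hybridization, which the study's model held, are not in the labels and were left out. Correlations and within-pig contrasts used 100000 permutations (NumPy 2.4.6, SciPy 1.17.1), adjusted over 9, 6 or 3 relations. Slides with 3 or more arrays entered the slide test. The fits were tested on simulated data. The named genes were the members, every listed gene by each named probe, and for each member the 3 named genes of highest likeness over at least 60 arrays in each muscle. One gene was left out of the lists and is not reported here.

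Median signal ran from 171 to 304 in LM and from 105 to 252 in SM, and 69.2% to 99.9% and 63.4% to 83.3% of probes were well above background. Precision is limited by the number of arrays behind a mean. The 2 arrays of a pig carry the same number and the same pig label, which gives the pairing. Their deviations from the muscle means correlated across probes with a median r of 0.046 over 90 pigs, against -0.006 for different pigs. In 3 of 90 pigs the LM array correlated best with the SM array of the same pig, so the pairing rests on the labels. No array was identical to another.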

Additional observations from a re-analysis of the deposited data

How the results depend on the processing

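Of 129 alternatives to a tested value, 105 kept its direction and its side of the threshold, and 13 kept the side but turned direction. Of these 13, 12 were correlations of size 0.156 or less that had not passed, and the other was the contrast of MYOD1 and MYF6, at -0.20 with quantile normalisation, an alternative added after seeing the data. The count of probes called stayed within 1.5 times in 13 of 15 alternatives. MYF6 kept both in every alternative run, between -0.94 and -1.04. With the replicate block (pig), the differences were -1.02 for MYF6, 0.45 for MYOG and -0.80 for MYOD1, and pairing changed no call of a member. When the index of C-rich probes entered as covariate, MYOG was 0.21 and MYOD1 0.69, and with the index and the replicate block they were 0.24 (adjusted p = 0.158 by limma) and 0.60. On arrays in the shared range of the index, an alternative chosen after seeing the data, MYOD1 was 0.074. With the index removed, the contrast of MYOG and MYOD1 was -0.46, that of MYOD1 and MYF6 was 1.58, and the correlation of MYOD1 and MYF6 in SM was -0.36. With normexp background correction, that contrast was 0.36 and that correlation -0.36. With the index as a covariate, the slide test of MYOD1 in SM gave F = 2.50 (adjusted p = 0.0386 by limma), an F that does not fully allow for its missing values. Against 9169 probes called, 6027 were called in the deposited table and 3558 after the k-means filter, in both cases with fewer probes tested (6903 and 4002). For the other changes the cause was not tested.

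MYOD1 read close to background, and 19 LM and 10 SM arrays gave no value for it. A probe's level cannot be compared with that of another probe. Each slide and scan day holds 1 muscle, and all SM arrays were scanned after those of LM.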
